A study of Mus musculus with 5 samples.

Results

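Aquaporins are membrane channels for water, and the branch called aquaglyceroporins also passes glycerol. The genes described here are the 9 listed mouse aquaporins Aqp1, Aqp2, Aqp3, Aqp4, Aqp5, Aqp7, Aqp8, Aqp9 and Aqp11, taken by symbol from a count table of 78334 gene identifiers. All 9 were found, 8 of them had enough counts to be among the 24779 genes tested, and Aqp8 did not. RNA came from visceral adipose tissue of male C57BL/6 mice, an inbred strain, in 5 libraries. The resveratrol group (2 libraries) ate high-fat chow (60% of energy as fat) for 8 weeks from the age of 8 weeks, then 28 daily doses of the plant compound resveratrol, 2.25 mg/kg given through a gastric tube. The obesity group (2 libraries) had the same diet and then the vehicle. The control group (1 library) had standard chow and the vehicle. Treatment began at 16 weeks of age in all of them, per the labels. Whether the 2 libraries of a group are from different mice is not stated in the labels, so every p-value measures the spread between these libraries, which may be technical.

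In adipocytes, Aqp7 lets out the glycerol that lipolysis frees from stored triglyceride. Glycerol that leaves fat is taken up by liver through Aqp9. Aqp1 is the water channel of capillary endothelium and red cells, and outside fat the family serves fluid transport in kidney, glands and the ducts of the male tract. Levels are in CPM, counts scaled to each library's total after TMM normalisation. An SD, written ±, is over the 2 libraries of its group, and the control group has none. Counting intervals and floors hold no other error than that of counting.

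Marker levels of several tissues varied between libraries. Total counts ranged from 19540961 to 27026597. The 15 adipocyte markers summed to 9008 and 40143 CPM in the resveratrol libraries, 33325 and 39521 CPM in the obesity libraries and 606 CPM in the control library, with no marker at a count of 0 in any of them. The 12 markers of epididymal principal cells, the secretory cells of the duct that stores sperm, summed to 3399 and 0.389 CPM in the resveratrol libraries, 25.9 and 0.238 CPM in the obesity libraries and 70102 CPM in the control library. In resveratrol library 1 that sum was nearly all the secretory protein gene Crisp1, at 3397 CPM. No other gene of the list exceeded 0.727 CPM there. The 25.9 CPM of obesity library 1 came with Crisp1 at a count of 0. The 10 smooth muscle markers summed to 51757 CPM in resveratrol library 1 and to between 405 and 2555 CPM in the other libraries. In these sums the control library and resveratrol library 1 thus went against the labelled tissue, but cell mixture itself was not tested. In such bulk RNA, fewer cells of a type and less RNA per cell cannot be told apart.

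No aquaporin passed an adjusted p of 0.05 in any comparison in edgeR's quasi-likelihood test, and neither did any other gene. The share called was 0% of 24779 genes in each comparison. At an unadjusted p under 0.05, 581 genes lay in resveratrol against obesity, 6018 in obesity against control and 4596 in resveratrol against control. DESeq2 called 219, 4524 and 3085 genes in those comparisons. The aquaporin values are therefore levels and differences with their errors.

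Promoter letters are shown for 4 members, taken as pairs whose levels part or meet. Aqp7 and Aqp3 are neighbours on chromosome 4 with unlike levels across the libraries. Aqp9 and Aqp2, on chromosomes 9 and 15, shared a high level in resveratrol library 1. They parted in the control library, at 118 and 0.942 CPM. Each line gives the 250 bases before the first RefSeq start listed for that gene, 5′ to 3′ on the gene's strand, from the RefSeq table on build GRCm38.p6. The count table was made on another build, so no other coordinates are set beside it. Capitals mark AGGTCA (a nuclear receptor half-site of the kind that PPAR and RXR bind), AGAACA (an androgen receptor half-site) and TATAAA (the core promoter box that binds TBP), searched on both strands.
Aqp7 (chr4:41048137-41048386, minus strand): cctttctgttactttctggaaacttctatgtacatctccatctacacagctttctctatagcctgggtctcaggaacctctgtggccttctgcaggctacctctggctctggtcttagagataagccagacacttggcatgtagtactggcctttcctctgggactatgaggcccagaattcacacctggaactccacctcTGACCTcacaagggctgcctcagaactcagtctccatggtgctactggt
Aqp3 (chr4:41098184-41098433, minus strand): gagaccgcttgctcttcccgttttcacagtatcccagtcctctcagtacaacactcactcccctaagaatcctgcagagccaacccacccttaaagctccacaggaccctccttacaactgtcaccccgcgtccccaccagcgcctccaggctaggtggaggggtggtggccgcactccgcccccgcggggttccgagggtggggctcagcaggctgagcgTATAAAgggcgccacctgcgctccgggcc
Aqp9 (chr9:71163290-71163539, minus strand): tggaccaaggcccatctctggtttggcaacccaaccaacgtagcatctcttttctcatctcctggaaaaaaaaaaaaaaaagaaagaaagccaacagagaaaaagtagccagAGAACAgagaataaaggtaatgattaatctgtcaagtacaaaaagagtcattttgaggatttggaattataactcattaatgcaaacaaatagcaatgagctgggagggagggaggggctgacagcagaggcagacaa
Aqp2 (chr15:99578806-99579055, plus strand): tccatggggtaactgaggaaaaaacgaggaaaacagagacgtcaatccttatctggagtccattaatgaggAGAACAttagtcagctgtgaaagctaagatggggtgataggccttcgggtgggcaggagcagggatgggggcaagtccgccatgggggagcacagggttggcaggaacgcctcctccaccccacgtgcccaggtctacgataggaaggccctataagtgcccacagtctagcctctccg

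In these windows Aqp7 held 1 AGGTCA on the other strand, so that the line shows its reverse complement in capitals, 49 to 44 bases before the start. A second Aqp7 start in the table had 2 such matches and 1 AGAACA in its window. That window overlaps the one shown, and its match 223 to 218 bases before the second start is the same site. The other match lay 101 to 96 bases before the second start. Aqp3 held TATAAA 29 to 24 bases before its start. Aqp9 and Aqp2 held 1 AGAACA each, at 138 to 133 and at 179 to 174 bases before the start. The window of a second Aqp9 start in the table held none of the 3 motifs. Within each window, no matches overlapped each other. Among all 32851 windows of that length in the table, 14.0% held AGGTCA, 16.1% held AGAACA and 12.4% held TATAAA, so each match is common and is a description of letters alone. RefSeq windows were searched for 8 of the 9 members. Windows of chromosome 18, where Aqp4 lies, were left out of the member search, so Aqp4 was not searched. Of the searched members not shown above, Aqp11 held 1 AGGTCA, and Aqp1, Aqp5 and Aqp8 held none of the 3 motifs.

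**Figure D1:**
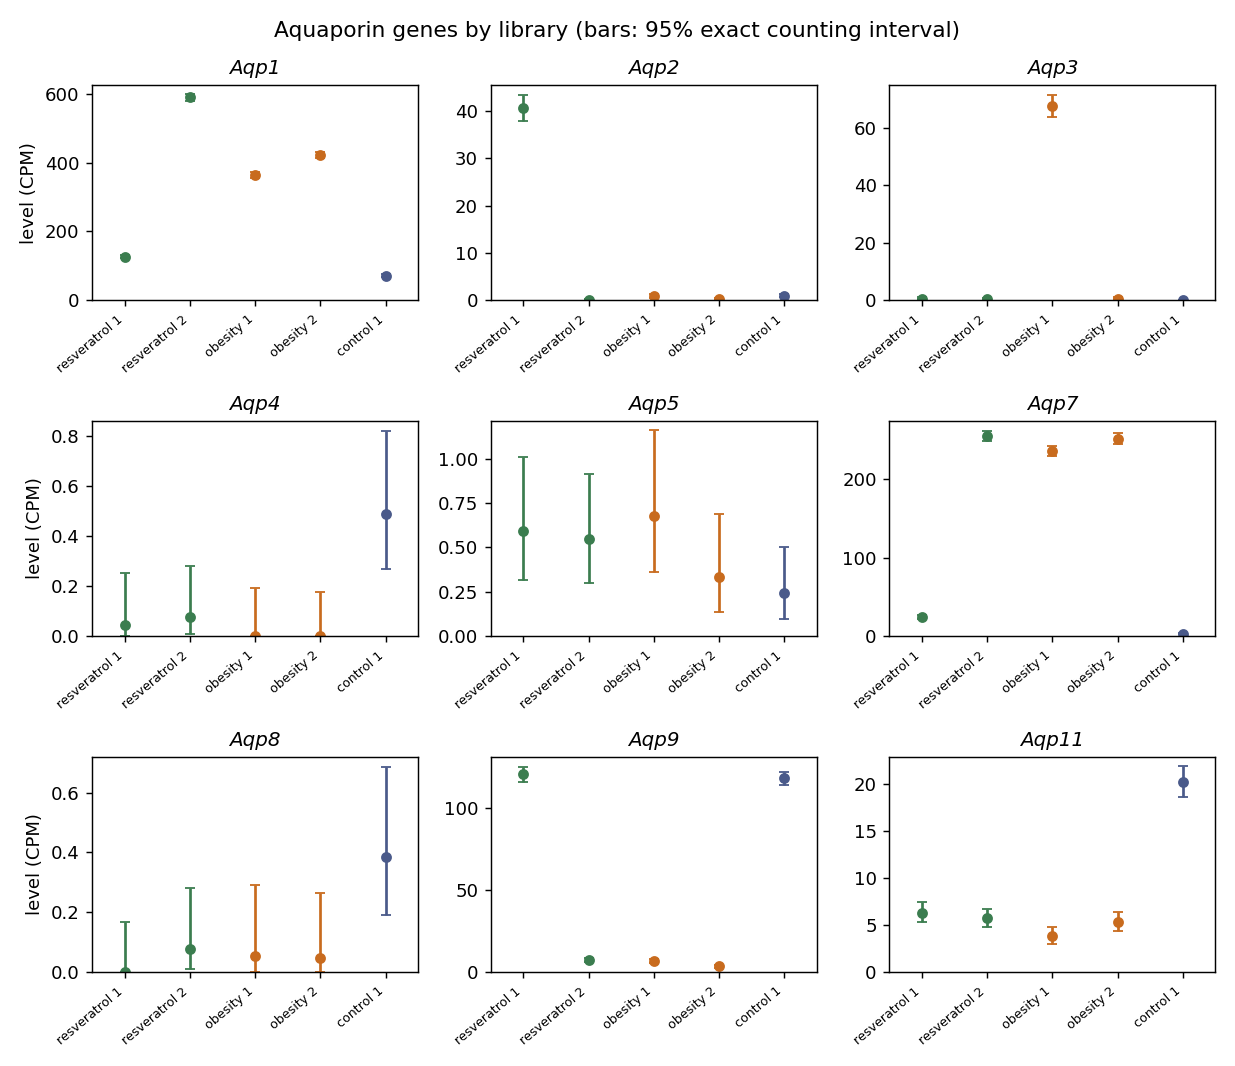
Level in CPM (vertical axis, linear from 0) of each of the 9 aquaporins in each library (horizontal axis), with points coloured by group and bars for the 95% exact counting interval. Aqp2 is high in resveratrol library 1 alone at 40.5 CPM, Aqp3 in obesity library 1 alone at 67.6 CPM, and Aqp9 in resveratrol library 1 and the control library at 121 and 118 CPM.

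Aqp7 (ENSMUSG00000028427), the adipocyte glycerol channel, measured 24.5 and 256 CPM in the resveratrol libraries, 236 and 252 CPM in the obesity libraries and 2.82 CPM in the control library (95% exact interval 2.24 to 3.51). Resveratrol library 2 and both obesity libraries thus sat together, while resveratrol library 1 and the control library lay far below them. In obesity against control the means were 244 ± 11.3 CPM and 2.82 CPM, an 86.5-fold ratio and a log2 difference of 6.43 (SE 1.93, edgeR adjusted p = 0.185). Without resveratrol library 1, which then adds nothing to the spread, the edgeR adjusted p was 3.49e-05, and without resveratrol library 2 it was 5.96e-05. DESeq2 on all 5 libraries gave an adjusted p of 3.68e-05.

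In resveratrol against obesity, Aqp7 averaged 140 ± 163 CPM and 244 ± 11.3 CPM, a log2 difference of -0.80 (SE 1.11, edgeR adjusted p = 0.919) with overlapping groups. That direction rested on resveratrol library 1. Without that library the log2 difference was 0.08 (edgeR adjusted p = 1), and without resveratrol library 2 it was -3.31 (edgeR adjusted p = 0.000636). Resveratrol library 1 held 10.04% of the obesity mean of Aqp7, and resveratrol library 2 held 105%. In resveratrol against control the log2 difference was 5.63 (SE 1.85, edgeR adjusted p = 0.258). Without resveratrol library 1 that value was 6.52 (edgeR adjusted p = 9.11e-05), and without resveratrol library 2 it was 3.14 (edgeR adjusted p = 0.00100).

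The summed adipocyte markers were low where Aqp7 was low. As a share of its mean in the obesity libraries, their sum was 24.7% and 110% in the resveratrol libraries and 1.66% in the control library, where Aqp7 stood at 1.16%. Among the 15 single markers the median was 23.6% in resveratrol library 1, and 1 of 15 lay below Aqp7 there. Not every marker was low in that library: the single markers ran from 9.39% to 181% of their obesity means. The highest was Slc2a4, the insulin-responsive glucose transporter gene, with 267 and 178 CPM in the resveratrol libraries, 118 and 177 CPM in the obesity libraries and 14.6 CPM in the control library. Cfd, the adipsin gene, had 1449 CPM there, against 1356 and 1713 CPM in the obesity libraries. Cidea was uneven within groups, with 10.1 and 1.67 CPM for resveratrol and 45.3 and 2.90 CPM for obesity. In the control library 6 of the 15 single markers lay below Aqp7 as a share of the obesity mean. Relative to the marker sum, Aqp7 made up 0.272% and 0.637% in the resveratrol libraries, 0.709% and 0.638% in the obesity libraries and 0.466% in the control library. Resveratrol library 1 was thus the lowest of the 5 in this ratio. Aqp7 RNA is also known from testis, and the 10 germ cell markers summed to 2.63 and 0.233 CPM in the resveratrol libraries, 0.0522 and 1.43 CPM in the obesity libraries and 191 CPM in the control library, which was the library with the least Aqp7. The part of cell mixture in the Aqp7 differences was not tested.

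The 3 genes with the profile most like Aqp7, among 14164 compared with it over the 5 libraries, were Ccl11, Ptafr and Fgf13. The measure is the root mean square difference of log2 levels after each profile is centred, and it was 0.11, 0.12 and 0.15. Ccl11 measured 5.09 and 58.9 CPM in the resveratrol libraries, 60.9 and 69.1 CPM in the obesity libraries and 0.349 CPM in the control library.

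Aqp9 (ENSMUSG00000032204), the glycerol and urea channel of liver, leukocytes and male duct epithelium, ran the other way. Its levels were 121 and 7.39 CPM in the resveratrol libraries, 6.83 and 3.48 CPM in the obesity libraries and 118 CPM in the control library (95% exact interval 114 to 122). Both resveratrol libraries lay above both obesity libraries, but resveratrol library 2 and obesity library 1 had overlapping counting intervals (6.38 to 8.52 CPM and 5.71 to 8.11 CPM). The means in resveratrol against obesity were 64.0 ± 80.1 CPM and 5.15 ± 2.38 CPM, a log2 difference of 3.63 (SE 1.45, edgeR adjusted p = 0.899). Without resveratrol library 1 the log2 difference was 0.53 (edgeR adjusted p = 1), and without resveratrol library 2 it was 4.56 (edgeR adjusted p = 0.00718).

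In obesity against control, Aqp9 was 22.9-fold lower, a log2 difference of -4.52 (SE 1.61, edgeR adjusted p = 0.202). This passed without resveratrol library 1 (edgeR adjusted p = 0.00212), without resveratrol library 2 (edgeR adjusted p = 0.00415) and in DESeq2 (adjusted p = 0.0168). In resveratrol against control the groups overlapped, with a log2 difference of -0.89 (SE 1.54, edgeR adjusted p = 0.747). Without resveratrol library 1 that difference was -3.97 (edgeR adjusted p = 0.00808), and without resveratrol library 2 it was 0.05.

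Aqp9 was highest in the 2 libraries with the largest male duct marker sums, but not in proportion to them. Gpx5, a secreted glutathione peroxidase and the most abundant principal cell marker, was at 0.182 CPM in resveratrol library 1 and 28097 CPM in the control library. Crisp1, a secretory protein gene of the same list, had 3397 and 2460 CPM there and a count of 0 in the other 3 libraries. It thus made up nearly all of the principal cell sum of 3399 CPM in resveratrol library 1. Apart from Crisp1 and Pate4, every gene of the list was lower in resveratrol library 1 than in obesity library 1, where Aqp9 was at 6.83 CPM. Of the 12 principal cell markers, Cst11, Lcn8, Lcn9 and Spag11b were at 0 in resveratrol library 1. Pax8, a transcription factor gene of male duct epithelium, was at 139 and 227 CPM in resveratrol library 1 and the control library and at 0 in the others. Where principal cell markers summed to 0.389 and 0.238 CPM, in resveratrol library 2 and obesity library 2, Aqp9 still stood at 7.39 and 3.48 CPM.

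Markers of other cells known for Aqp9 were measured as well. Hepatocyte markers (7 genes) summed to 4.36 and 52.9 CPM in the resveratrol libraries, 16.4 and 14.6 CPM in the obesity libraries and 0.872 CPM in the control library, where 5 of the 7 were at 0. Neutrophil markers (9 genes) summed to 3.32 and 19.9 CPM with resveratrol, 15.1 and 15.4 CPM for obesity and 2.62 CPM for control. Macrophage markers (10 genes) summed to 541 and 3426 CPM with resveratrol, 3124 and 2876 CPM for obesity and 202 CPM for control. All 3 lists were lowest in the 2 libraries with the most Aqp9. The part of duct, liver or blood cell RNA in the Aqp9 differences was not tested. The genes most like Aqp9 were B3gat1, Tmem51 and Dact2, at distances of 0.20, 0.23 and 0.26. Of these Tmem51 was at 273 and 13.5 CPM with resveratrol, 13.3 and 9.66 CPM for obesity and 200 CPM for control.

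Aqp3 (ENSMUSG00000028435), the glycerol and water channel of skin, urothelium and other stratified epithelia, was a gene of 1 library. Its level was 0.591 and 0.467 CPM in the resveratrol libraries, against 67.6 and 0.571 CPM in the obesity libraries. The control library had a count of 0, where a floor of 3 counts corresponds to 0.105 CPM. Obesity library 1 exceeded obesity library 2 by 118-fold, a wider gap than in 99.9% of 17475 genes with a mean of at least 1 CPM. In resveratrol against obesity the log2 difference was -6.00 (SE 2.33, edgeR adjusted p = 0.899), and the groups overlapped. Without obesity library 1 it was -0.10 (edgeR adjusted p = 1). Against the control floor the obesity mean was at least 326-fold higher and the resveratrol mean at least 5.05-fold higher. The obesity figure came from library 1, and edgeR's adjusted p was 0.213 there. DESeq2 gave 0.000522 as its adjusted p for obesity against control.

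Urothelial markers, which mark the lining of the urinary tract, were also high in obesity library 1. The 6 genes summed to 36.4 and 14.6 CPM in the resveratrol libraries, 405 and 1.00 CPM in the obesity libraries and 83.8 CPM in the control library. In obesity library 2 Upk2, Upk3a and Foxa1 were at 0, and in resveratrol library 2 Upk2 was at 0. The uroplakin gene Upk3a was at 84.3 CPM in obesity library 1 and at or below 0.837 CPM elsewhere. Basal epithelial markers (6 genes) summed to 84.9 and 8.67 CPM with resveratrol, 157 and 1.81 CPM for obesity and 212 CPM for control. The control library therefore held more basal marker RNA than obesity library 1 with no Aqp3 read. Of that list Krt5, a basal keratin gene, reached 132 CPM in obesity library 1, against 57.3 CPM in the control library. The genes most like Aqp3 were Ctse, Sprr2a2 and Syt8, at distances of 0.46, 0.47 and 0.48. Sprr2a2 has close paralogs that can share reads, and it was at 25.8 CPM in obesity library 1 and at a count of 0 in the other 4 libraries. Whether urinary tract RNA accounts for this Aqp3 was not tested.

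**Figure D2:**
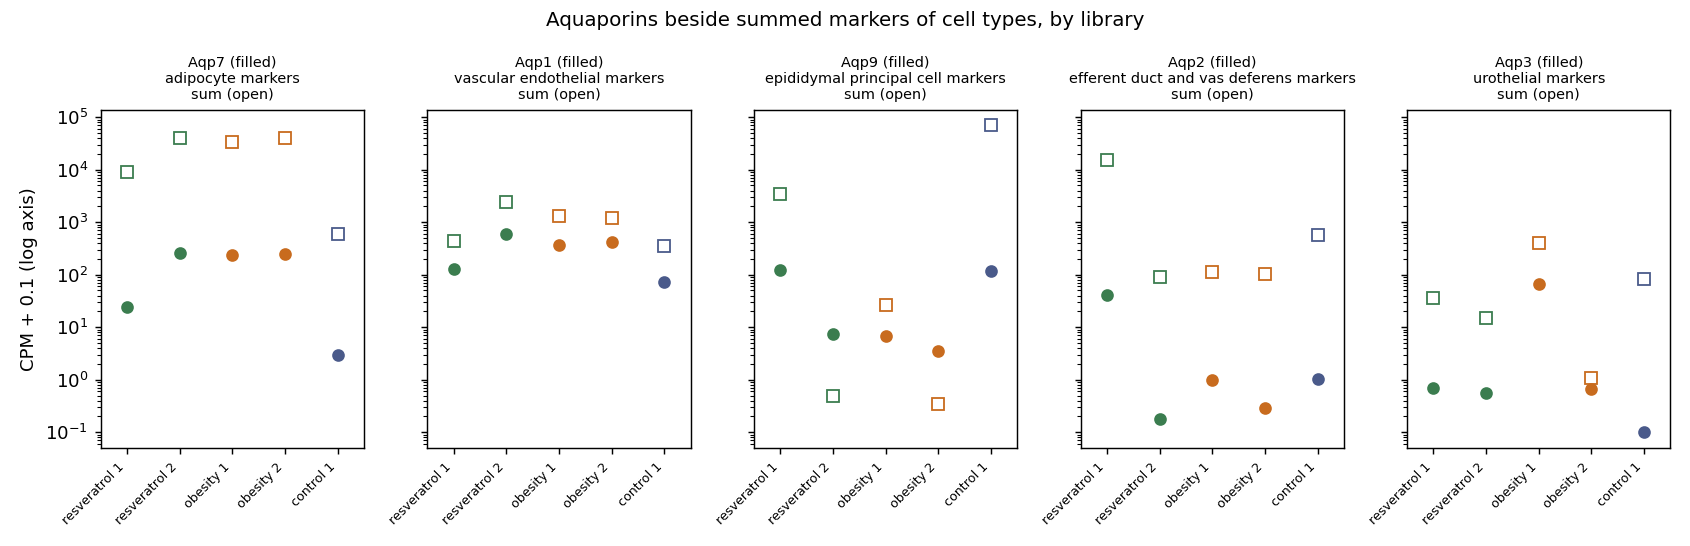
Level of 5 aquaporins (filled points) beside the summed level of a cell type marker list (open squares) in each library, both as CPM + 0.1 on a log axis and coloured by group. Aqp7 follows the adipocyte sum and Aqp1 the endothelial sum. Aqp9, Aqp2 and Aqp3 are high in libraries where the sum of a duct or urothelial list is high. In resveratrol library 1 the sums beside Aqp9 and Aqp2, 3399 and 15607 CPM, are nearly all from 1 gene each. These are Crisp1 and Akr1b7, at 3397 and 15288 CPM. Aqp3 is at a count of 0 in the control library. The urothelial sum of 83.8 CPM there is mostly Krt7 and Upk1a, at 48.9 and 32.8 CPM.

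Aqp1 (ENSMUSG00000004655), the endothelial and red cell water channel, measured 127 and 589 CPM in the resveratrol libraries, 364 and 420 CPM in the obesity libraries and 72.0 CPM in the control library (95% exact interval 68.9 to 75.1). Resveratrol library 2 was the highest and the control library the lowest, and the obesity libraries lay between the 2 resveratrol libraries. Resveratrol against obesity gave 358 ± 327 CPM and 392 ± 39.8 CPM, a log2 difference of -0.13 (SE 0.80, edgeR adjusted p = 0.997). It was 0.60 without resveratrol library 1 (edgeR adjusted p = 0.835) and -1.62 without resveratrol library 2 (edgeR adjusted p = 0.00576), so its direction rested on which of the 2 was kept.

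Obesity against control gave Aqp1 a 5.45-fold ratio, a log2 difference of 2.45 (SE 1.12, edgeR adjusted p = 0.246). It passed without resveratrol library 1 (edgeR adjusted p = 0.000643) and without resveratrol library 2 (edgeR adjusted p = 0.000709), but not in DESeq2 on all 5 libraries (adjusted p = 0.0735). Resveratrol against control gave 2.31 (SE 1.11, edgeR adjusted p = 0.318), and 3.06 without resveratrol library 1 (edgeR adjusted p = 0.000487) and 0.84 without resveratrol library 2 (edgeR adjusted p = 0.0752).

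The 14 vascular endothelial markers moved with Aqp1. They summed to 434 and 2393 CPM in the resveratrol libraries, 1304 and 1178 CPM in the obesity libraries and 358 CPM in the control library, and none was at 0. Aqp1 made up 29.2% and 24.6% of that sum with resveratrol, 27.9% and 35.7% in obesity and 20.1% in control. The ratio thus varied far less between libraries than Aqp1 itself did. As a percent of the obesity mean, Aqp1 stood at 32.3% and 150% in the resveratrol libraries and 18.4% in the control library. The median endothelial marker stood at 34.6% and 176% in the resveratrol libraries and 30.8% in the control library.

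Erythroid markers (7 genes matched of 8) summed to 203 and 1110 CPM with resveratrol, 723 and 514 CPM for obesity and 238 CPM for control, mostly the alpha globin genes Hba-a1 and Hba-a2, which are near copies of each other. Mesothelial markers (8 genes), of the lining of the body cavity, which also has Aqp1, summed to 363 and 258 CPM with resveratrol, 282 and 24.9 CPM for obesity and 438 CPM for control. That sum was highest in the library with the least Aqp1, where Krt8, Krt19 and Upk1b, which other epithelia also express, made up most of it at 238, 122 and 76.5 CPM. The other 5 genes, Upk3b, Msln, Lrrn4, Wt1 and Bnc1, were each highest in resveratrol library 2, the library with the most Aqp1. Of these Upk3b, a uroplakin gene of mesothelium, had 2.50 and 108 CPM with resveratrol, 23.6 and 6.00 CPM for obesity and 0.209 CPM for control. The part of these cells in the Aqp1 differences was not tested. Genes most like Aqp1 were Klf4, Klhl6 and Kcne1l, at distances of 0.06, 0.08 and 0.08, the closest match of any member. Klf4 was at 20.2 and 87.4 CPM with resveratrol, 52.0 and 62.2 CPM for obesity and 10.8 CPM for control.

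Aqp2 (ENSMUSG00000023013), the vasopressin-regulated channel of the kidney collecting duct and also a channel of the vas deferens, was high in resveratrol library 1 alone. Its counts there and in resveratrol library 2 were 892 and 2, or 40.5 and 0.0778 CPM. The obesity libraries had 17 and 4 counts (0.887 and 0.190 CPM) and the control library 27 counts (0.942 CPM). The gap between the resveratrol libraries was wider than in 99.3% of 17475 genes, and resveratrol library 2 was the lowest of all 5. Resveratrol against obesity gave a log2 difference of 5.23 (SE 2.73, edgeR adjusted p = 0.899). Without resveratrol library 1 it was -2.69 (edgeR adjusted p = 1), and without resveratrol library 2 it was 6.25 (edgeR adjusted p = 0.0228). Against control the difference was 4.42 (SE 3.52, edgeR adjusted p = 0.485), and -3.49 without resveratrol library 1. In obesity against control it was -0.81 (SE 2.84, edgeR adjusted p = 0.866).

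Summed kidney markers were highest in obesity library 1, not in resveratrol library 1. The 7 genes summed to 4.82 and 1.79 CPM with resveratrol, 8.45 and 2.71 CPM for obesity and 4.01 CPM for control. Of these, Scnn1b had 2.09 and 0.194 CPM with resveratrol, and Scnn1g 0.954 and 0 CPM. Both were higher in obesity library 1, at 3.13 and 4.90 CPM. Avpr2 went the other way, with 0.136 and 0.428 CPM with resveratrol. The thick limb genes Umod and Slc12a1 were at 0 in both resveratrol and both obesity libraries. The 9 efferent duct and vas deferens markers summed to 15607 and 91.6 CPM with resveratrol, 113 and 101 CPM for obesity and 570 CPM for control. Most of the first value was Akr1b7, an aldo-keto reductase gene abundant in mouse vas deferens, at 15288 CPM, against 0 in resveratrol library 2, 0.313 and 0.0952 CPM for obesity and 8.19 CPM for control. Of the other genes of that list, Pax2 and Esr1 were also highest in resveratrol library 1. They stood at 118 and 48.4 CPM there, against 113 and 28.7 CPM in the control library. Pax8, Car4, Slc4a4, Cftr, Slc26a3 and Slc9a3 were highest in the control library. Car4 and Slc4a4 were lowest in resveratrol library 1, at 8.27 and 4.36 CPM, and Cftr was at 0 there, against 32.3 CPM for control. Seminal vesicle markers (6 genes) summed to at most 0.314 CPM in any library. Myh11, the smooth muscle myosin gene, was at 19257 CPM in resveratrol library 1 and at or below 299 CPM elsewhere. Genes most like Aqp2 were Otogl, Dab1 and Myocd, at distances of 0.20, 0.24 and 0.24. Myocd, the myocardin gene, measured 55.6 and 0.311 CPM with resveratrol, 0.783 and 0.190 CPM for obesity and 1.12 CPM for control. The part of duct wall RNA in the Aqp2 level was not tested.

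Aqp11 (ENSMUSG00000042797), a distant member of the family that sits on internal membranes, was the steadiest of the members with a mean of at least 1 CPM. Its levels were 6.31 and 5.72 CPM in the resveratrol libraries, 3.81 and 5.33 CPM in the obesity libraries and 20.2 CPM in the control library (95% exact interval 18.6 to 21.9). Of the 5 libraries, 4 lay within 3.81 to 6.31 CPM, and the control library stood above them. In obesity against control it was 4.43-fold lower, a log2 difference of -2.14 (SE 0.46, edgeR adjusted p = 0.182), and in resveratrol against control 3.36-fold lower, a log2 difference of -1.75 (SE 0.46, edgeR adjusted p = 0.238).

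The unadjusted edgeR p-values of these Aqp11 differences were 0.00852 and 0.0174. The first passed without resveratrol library 1 (edgeR adjusted p = 0.00483), without resveratrol library 2 (edgeR adjusted p = 0.00587) and in DESeq2 (adjusted p = 0.00255). The second passed without resveratrol library 1 (edgeR adjusted p = 0.0253) and in DESeq2 (adjusted p = 0.0209), but not without resveratrol library 2 (edgeR adjusted p = 0.0534). Resveratrol against obesity gave 0.40 (SE 0.39, edgeR adjusted p = 0.899), and 0.33 without resveratrol library 1. There the groups did not overlap, but both resveratrol libraries lay within the counting interval of obesity library 2 (4.39 to 6.42 CPM). Genes most like Aqp11 were Vps37b, Zfp189 and Snx22, at distances of 0.09, 0.11 and 0.11. The control library was also the one with epididymal markers, and their part in its Aqp11 level was not tested.

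The remaining members were at or near the limit of detection. Aqp5 (ENSMUSG00000044217), the channel of saliva and tear glands, had 13 and 14 counts in the resveratrol libraries, 13 and 7 in the obesity libraries and 7 in the control library, or 0.244 to 0.678 CPM. Its counting intervals overlapped between all 5 libraries. The log2 difference was 0.17 (SE 0.85) in resveratrol against obesity and 1.03 (SE 1.10) in obesity against control, with edgeR adjusted p of 0.991 and 0.550. The first was -0.26 without obesity library 2. Gland acinar markers (8 genes) summed to 51.5 and 193 CPM with resveratrol, 169 and 210 CPM for obesity and 28.6 CPM for control. That sum was mostly Amy1 and Cela1, while 4 or 5 of the 8 were at 0 in each library.

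Aqp4 (ENSMUSG00000024411), the main channel of astrocytes and of skeletal muscle, had 1 and 2 counts in the resveratrol libraries, 0 and 0 in the obesity libraries and 14 in the control library, or 0.488 CPM (95% exact interval 0.267 to 0.819). Against the floor of 3 counts per library, the obesity mean was at least 3.26-fold lower than the control library (edgeR adjusted p = 0.215). It entered the test through the control library, where it was high. Schwann cell and nerve markers (8 genes) were highest in resveratrol library 1, at 131 CPM, against 51.1 to 81.0 CPM in the other libraries. Aqp8 (ENSMUSG00000030762), a channel of liver, pancreas, gut and testis, had 0 and 2 counts with resveratrol, 1 and 1 in obesity and 11 in control, or 0.384 CPM (95% exact interval 0.191 to 0.686), too few to be tested.

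Outside the 9 listed genes, Aqp6, a channel of acid-secreting kidney cells, was at 204 counts (7.11 CPM) in the control library and at 0 counts in the other 4. This puts the obesity mean at least 47.5-fold and the resveratrol mean at least 56.2-fold lower than control (edgeR adjusted p = 0.182 and 0.237). Like Aqp4, it entered the test through the control library, where it was high. Aqp6 is the neighbour of Aqp5 on chromosome 15, and Aqp5 that of Aqp2. Aqp6 was highest in the control library and Aqp2 in resveratrol library 1, while the counts of Aqp5 give no order of libraries. Foxi1, a transcription factor gene of acid-secreting epithelial cells and a marker of epididymal clear cells, was at 46.0 CPM for control, 0.318 and 0.117 CPM with resveratrol and 0 in both obesity libraries. The 8 clear cell markers summed to 16.9 and 106 CPM with resveratrol, 217 and 124 CPM for obesity and 249 CPM for control, and Atp6v0d2 made up most of the obesity sums. The lens gene Mip and the pancreas gene Aqp12 had at most 3 counts in any library.

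The make-up of aquaporin RNA can be compared between genes only per length. Levels were divided by the kilobases of exon in GENCODE M21, an annotation on GRCm38 rather than the one behind the counts, so shares are approximate. Aqp1 had the largest share in 4 of the 5 libraries. It made up 41.6% and 70.6% of the summed level per kilobase of the 9 genes in the resveratrol libraries, 52.9% and 63.7% in the obesity libraries and 45.5% in the control library. Aqp7 was next in resveratrol library 2 and in both obesity libraries, with 28.5%, 31.9% and 35.5%, against 7.50% in resveratrol library 1 and 1.66% in control. Aqp9 took 25.2% in resveratrol library 1 and 47.4% in control, the largest share there, and at most 0.629% in the other 3. Aqp2 took 24.7% in resveratrol library 1, and Aqp3 took 14.1% in obesity library 1. The 9 genes together summed to 116 and 318 CPM per kilobase with resveratrol, 262 and 251 in obesity and 60.2 in control.

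**Figure D3:**
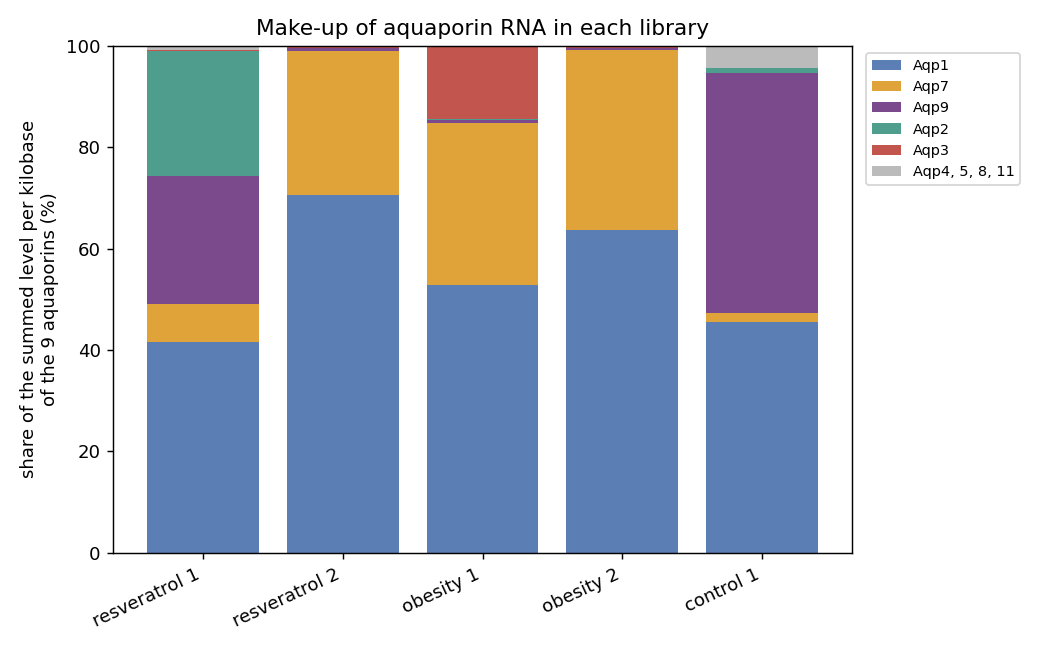
Share in percent (vertical axis) of each aquaporin in the summed level per kilobase of exon of the 9 genes, as stacked bars for each library. Resveratrol library 2 and the 2 obesity libraries are mostly Aqp1 and Aqp7, while Aqp9 fills 25.2% of resveratrol library 1 and 47.4% of the control library.

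In each comparison, the members whose groups did not overlap were counted beside all tested genes. In resveratrol against obesity 3 of the 8 tested members had both resveratrol libraries above both obesity libraries (Aqp4, Aqp9 and Aqp11) and none had both below. Of all tested genes, 33.7% did not overlap, 16.9% above and 16.7% below. The 3 include Aqp4, with 1 and 2 counts against 0 and 0. In obesity against control 4 members lay above (Aqp1, Aqp3, Aqp5 and Aqp7) and 4 below (Aqp2, Aqp4, Aqp9 and Aqp11), 8 of 8. Of all tested genes, 89.4% did not overlap with the lone control library, 40.8% above and 48.6% below. In resveratrol against control 4 lay above (Aqp1, Aqp3, Aqp5 and Aqp7) and 2 below (Aqp4 and Aqp11), 6 of 8. The background was 78.7%, with 37.7% above and 41% below. At an unadjusted p under 0.05, the members were 0 of 8 in resveratrol against obesity (2.34% of all genes), 3 of 8 in obesity against control (24.3%) and 2 of 8 in resveratrol against control (18.5%). The comparisons share libraries, since each group enters 2 of them.

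**Figure D4:**
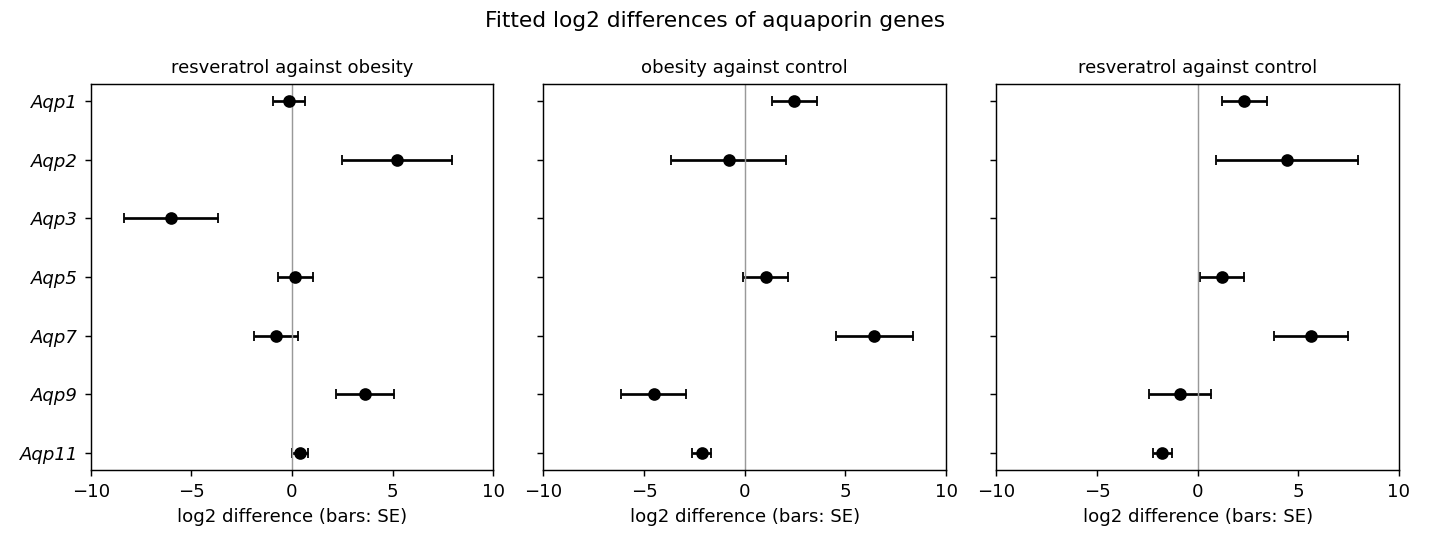
Fitted log2 difference (horizontal axis, points, with bars for 1 SE) of 7 aquaporins (rows) in each comparison (panels), positive where the group named first is higher. Aqp4, and Aqp3 in the comparisons with control, are left out because a group was at a count of 0, and Aqp8 because it was not tested. Aqp7 lies at 6.43 and 5.63 against control and at -0.80 in resveratrol against obesity.

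Genes of glycerol and fat mobilisation were set beside Aqp7 as a list of 18, from the lipases to glycerol kinase. Of these, Plin1, Cidec, Fabp4, Lipe and Pnpla2 are also among the adipocyte markers above, so the lists are not independent. No gene of the list passed in any comparison, in either direction (0% of all genes). In obesity against control 17 of the 18 were higher, with a median log2 difference of 5.14, against -0.10 over all 24779 genes. Of all tested genes, 46.9% were higher there, 51.4% in resveratrol against control and 52.8% in resveratrol against obesity. In resveratrol against control 17 were higher, with a median of 4.48, against 0.05 over all genes (5.19 without resveratrol library 1 and 3.10 without resveratrol library 2). In resveratrol against obesity 15 were lower and 3 higher, with a median of -0.51, against 0.05 over all genes. Leaving out resveratrol library 1, 10 were lower and 8 higher (median -0.0155), and without resveratrol library 2, 17 were lower and 1 higher (median -2.00). The gene that went the other way against control was Gk, glycerol kinase, with 39.7 and 10.04 CPM in the resveratrol libraries, 28.4 and 18.7 CPM in the obesity libraries and 133 CPM in the control library. Gk was thus highest in the library with the least Aqp7.

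Of the genes with the smallest p, Lipe, the hormone-sensitive lipase gene, measured 512 and 2473 CPM with resveratrol, 1675 and 2086 CPM for obesity and 30.9 CPM for control. Plin1, the lipid droplet gatekeeper gene, had 290 and 2488 CPM with resveratrol, 1506 and 2460 CPM for obesity and 7.57 CPM for control. Pde3b, the phosphodiesterase gene through which insulin restrains lipolysis, differed by 3.51 on the log2 scale in obesity against control (SE 0.67, edgeR adjusted p = 0.178). Gpd1, which makes the glycerol 3-phosphate that triglyceride synthesis uses, had 47.8 and 472 CPM in the resveratrol libraries, against 762 and 760 CPM for obesity, which is a log2 difference of -1.55 (SE 1.13, edgeR adjusted p = 0.899). This was -0.68 without resveratrol library 1 (edgeR adjusted p = 0.757) and -3.98 without resveratrol library 2 (edgeR adjusted p = 0.000609). Abhd5, the coactivator gene of adipose triglyceride lipase, had 22.8 and 62.4 CPM in the resveratrol libraries, against 73.2 and 107 CPM for obesity, which is a log2 difference of -1.08 (SE 0.58, edgeR adjusted p = 0.899). That was -0.52 without resveratrol library 1 (edgeR adjusted p = 1) and -1.98 without resveratrol library 2 (edgeR adjusted p = 0.00755). In resveratrol library 1 the median gene of the list stood at 24.8% of its obesity mean, and 1 of the 18 lay below Aqp7. In resveratrol library 2 the median was 98.1%.

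Cell volume and water balance genes, a list of 16 transporters, channels, regulatory kinases and other genes, were counted in the same way, and none passed (0% of all genes). In resveratrol against obesity 5 were higher and 11 lower, with a median log2 difference of -0.45, against 0.05 over all genes. In obesity against control 11 were higher and 5 lower (median 1.07, against -0.10 over all genes). In resveratrol against control 10 were higher and 6 lower (median 0.86, against 0.05 over all genes). Of all tested genes, 52.8%, 46.9% and 51.4% were higher in these comparisons. With resveratrol library 1 left out, the medians of resveratrol against obesity and against control were -0.00682 and 0.97, and without resveratrol library 2 they were -1.01 and -0.21. Slc6a6, the taurine transporter gene, measured 73.1 and 203 CPM with resveratrol, 318 and 309 CPM for obesity and 24.9 CPM for control. Slc5a3, the myo-inositol transporter gene, had 37.7 and 78.3 CPM in the resveratrol libraries, against 102 and 126 CPM for obesity, a log2 difference of -0.98 that was -0.53 without resveratrol library 1 (edgeR adjusted p = 0.931) and -1.59 without resveratrol library 2 (edgeR adjusted p = 0.00685). Oxsr1, a kinase gene that acts on chloride cotransporters, measured 70.6 and 71.1 CPM with resveratrol, 85.2 and 79.4 CPM for obesity and 28.3 CPM for control.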

How the data were processed

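Poly-A RNA libraries of visceral adipose tissue were sequenced, 2 of the resveratrol group, 2 of the obesity group and 1 of the control group. The authors deposited raw counts per Ensembl gene, whole numbers that were not normalised. Per the submitters' processing notes, FastQC and featureCounts were used on build GRCm39. Aligner, annotation release, strand setting and versions: not given in the sources used here. Symbols were matched for 65.7% of identifiers. No exon of a listed aquaporin overlapped another gene in GENCODE M21.

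edgeR 4.0.16 in R 4.3.3 was run on the counts: filterByExpr by group (minimum count 10, minimum total 15), TMM factors, and robust quasi-likelihood fitting over the 5 libraries together, with Benjamini-Hochberg adjustment at 0.05 over all genes tested. Since control has 1 library, its spread was taken from the other groups. The SE is the absolute log2 difference over the square root of F. An exact permutation test of 2 libraries against 2 cannot go below p = 0.333. CPM uses effective totals, and a gene at 0 has a floor of 3 counts per library, 0.105 to 0.157 CPM. Likeness used log2(CPM + 0.5), for members averaging at least 1 CPM, and named the nearest 3 tested genes that also averaged at least 1 CPM, leaving out predicted genes, clones and antigen receptor segments. From each pathway list, the genes with the smallest p were eligible to be named, up to 4 per comparison, and a selection is given. From a marker list, up to 3 genes of highest mean and those at 0 could be named. Gk, Crisp1, Slc2a4, Cfd, Cidea, Upk3b, Msln, Lrrn4, Wt1, Bnc1, Pax2, Esr1, Slc4a4 and Slc9a3 fall outside these rules and were named after their values were seen. The members, lists and tests were chosen with earlier results of these data known.

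The fit was tested on simulated data with the spread of the 5 libraries. For resveratrol against obesity (22683 genes run) it recovered 52% of 16-fold changes and 1% of 4-fold changes. For obesity against control (22598 genes) and resveratrol against control (22825 genes) it recovered 0% of both. Other settings tried were median-ratio size factors, testing with no filter, a minimum count of 50, DESeq2 1.42.0, only the groups compared, a replicate block and leaving out each library. Leaving out a resveratrol library was added for the pathway lists after the data were seen. Figures used Python 3.11.15 and matplotlib 3.10.9.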

Additional observations from a re-analysis of the deposited data

How the results depend on the processing

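The count of genes called was 0 in each comparison and stayed 0 with median-ratio size factors, a minimum count of 50 and the replicate block. With no filter it was 25 for resveratrol against obesity, 2575 for obesity against control and 1671 for resveratrol against control. DESeq2 called 219, 4524 and 3085, and a fit of only the groups compared called 9269 for obesity against control. Leaving out 1 library at a time gave 0 to 4758, 0 to 9227 and 0 to 7469 calls. The high ends came without resveratrol library 2 for the first comparison (33 without resveratrol library 1) and without resveratrol library 1 for the others (9094 and 4199 without resveratrol library 2). Without 1 resveratrol library the spread between the 2 no longer enters the fit, and the remaining one is assumed to vary like the other groups. Single aquaporin log2 differences turned sign in 7 cases. With 1 library left out, the resveratrol against obesity difference ranged from -1.62 to 0.60 for Aqp1, -2.69 to 6.71 for Aqp2, -0.26 to 0.77 for Aqp5 and -3.31 to 0.0776 for Aqp7. Those of resveratrol against control ranged from -3.49 to 5.44 for Aqp2 and -3.97 to 0.0521 for Aqp9. The signs turned without resveratrol library 1, except for Aqp5 (without obesity library 2) and Aqp9 (without resveratrol library 2). Aqp2 in obesity against control was 1.37 with the replicate block. Adjusted p came under 0.05 in several settings for single members, 16 times for obesity against control, 7 for resveratrol against control and 4 for resveratrol against obesity. No sign changed with median-ratio size factors. Replicate numbers are shared by the obesity and resveratrol libraries, and the deviations of same-numbered libraries correlated at 0.333 over 17475 genes, in 2 pairs. The labels do not say that a number marks a shared animal or day, so the block serves as an alternative, and with it no gene was called (0, 0 and 0). Depth limits Aqp4, Aqp5 and Aqp8, at 14 counts or fewer in any library. For the other settings, the cause of each shift in calls was not tested.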
